A study of Mus musculus with 8 samples.

Results

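Open chromatin of formalin-fixed paraffin-embedded (FFPE) mouse spleen was compared region by region between bulk ATAC-Seq and the merged fragments of single-cell ATAC-Seq, both with reverse crosslinking (+RV). The regions were those where the peaks of both +RV bulk libraries overlapped by at least 1 bp, with overlapping peaks merged, on chromosomes 1 to 19. They numbered 36663 of the 55428 regions covered by a peak of either +RV bulk library, and of 58916 regions when the bulk libraries without reverse crosslinking (−RV) were added. Each region received a rank in each assay. The bulk rank used the mean of the deposited peak scores of the 2 libraries (10 times the −log10 q of the peak), and the single-cell rank used the fragments per kb of region in the +RV single-cell set. A percentile of 100 is the strongest region, and the gap is the bulk percentile minus the single-cell percentile. A region counted as strong at a percentile of at least 75 and as weak at a percentile of at most 50. The result was 234 regions strong in bulk and weak in single cells, 718 regions strong in single cells and weak in bulk, and 7070 regions strong in both, while the other 28641 regions fell in none of these classes.

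Nuclei came from spleens of 8-week-old C57BL/6J mice fixed in formalin for 16 h. The series held 8 samples: bulk +RV, single-cell +RV, bulk −RV and single-cell −RV, with 2 libraries each. All carried the same genotype and tissue label, and no treatment other than fixation and reverse crosslinking was given. According to the study's supplement the bulk libraries of a condition are technical replicates, and its methods say that bulk material was split into +RV and −RV after tagmentation, so the spread between the libraries is technical. The 2 single-cell libraries of a condition were deposited as 1 pooled set, which therefore counts as 1 sample with no replicate check. The bulk +RV libraries held 47755 and 47864 peaks and the bulk −RV libraries 32288 and 32736. The single-cell +RV set held 14747920 fragments of 18620 barcodes, against 1727885 fragments of 2406 barcodes in the −RV set, and 2 barcodes occurred in both sets. Of the fragments on chromosomes 1 to 19, 20.6% in the +RV set and 17.5% in the −RV set lay in the shared regions. Of the genes of spleen lymphocytes, 16 of 16 B cell genes and 18 of 18 T cell genes were the nearest gene of at least 1 shared region. So were 12 of 12 endothelial and 8 of 8 plasma cell genes, against 3 of 8 pancreatic acinar genes, so the measure does not identify the tissue. In bulk tissue, fewer nuclei of a type and less accessible DNA per nucleus cannot be told apart.

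ATAC-Seq uses the Tn5 transposase to cut and tag DNA that is not wrapped tightly in nucleosomes. Promoters of widely used genes are open in most cells, whereas enhancers, which lie farther from transcription start sites (TSSs), are open in the cell types that use them. The mouse spleen holds B cells, T cells, macrophages and dendritic cells, and, unlike the adult human spleen, it also makes red blood cells. In erythroid precursors GATA factors bind the letters AGATAAG, and TAL1, KLF1 and NFE2 are further factors of these cells. PU.1, an ETS family factor of macrophages and B cells, binds the letters GAGGAAGT.

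The letters occurred at different rates in the 2 kinds of discordant regions, so sequences of both kinds are shown. Each is 250 bp of the RefSeq genome GRCm38.p6 (mm10), centred on the summit of the region's strongest bulk peak and written 5′ to 3′ on the + strand. Capitals mark AGATAAG, or its complement on the other strand, in 6 regions strong in single cells and weak in bulk. The first 4 were nearest to genes of red cell development and of the red cell membrane, and the last 2 were among the 10 largest gaps to the single-cell side.
Tal1, chr4:115056526-115056775, + strand: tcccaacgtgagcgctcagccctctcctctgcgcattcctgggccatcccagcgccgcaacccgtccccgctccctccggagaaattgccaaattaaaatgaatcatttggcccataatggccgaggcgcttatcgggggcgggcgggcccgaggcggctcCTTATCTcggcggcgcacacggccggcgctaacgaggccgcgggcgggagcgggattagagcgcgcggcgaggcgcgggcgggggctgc
Nfe2, chr15:103251647-103251896, + strand: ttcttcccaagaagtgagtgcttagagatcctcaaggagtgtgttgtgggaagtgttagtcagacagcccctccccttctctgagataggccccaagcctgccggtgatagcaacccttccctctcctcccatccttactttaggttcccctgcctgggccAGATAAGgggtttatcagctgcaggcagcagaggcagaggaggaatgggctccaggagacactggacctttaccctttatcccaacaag
Sptb, chr12:76673836-76674085, + strand: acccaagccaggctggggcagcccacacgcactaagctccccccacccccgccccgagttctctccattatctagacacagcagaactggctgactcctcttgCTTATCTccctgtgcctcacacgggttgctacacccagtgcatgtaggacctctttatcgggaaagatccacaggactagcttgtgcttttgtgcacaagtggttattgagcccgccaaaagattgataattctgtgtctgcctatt
Slc4a1, chr11:102363755-102364004, + strand: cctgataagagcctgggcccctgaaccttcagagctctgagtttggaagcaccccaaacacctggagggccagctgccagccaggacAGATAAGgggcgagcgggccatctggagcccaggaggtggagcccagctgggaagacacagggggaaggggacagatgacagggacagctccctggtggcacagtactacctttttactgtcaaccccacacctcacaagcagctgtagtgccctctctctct
Kcnn4, chr7:24377122-24377371, + strand: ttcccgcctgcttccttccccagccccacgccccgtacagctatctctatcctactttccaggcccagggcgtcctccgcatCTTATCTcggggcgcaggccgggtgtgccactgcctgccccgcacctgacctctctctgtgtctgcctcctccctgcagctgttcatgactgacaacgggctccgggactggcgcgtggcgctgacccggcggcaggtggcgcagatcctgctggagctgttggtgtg
Lpcat1, chr13:73475455-73475704, + strand: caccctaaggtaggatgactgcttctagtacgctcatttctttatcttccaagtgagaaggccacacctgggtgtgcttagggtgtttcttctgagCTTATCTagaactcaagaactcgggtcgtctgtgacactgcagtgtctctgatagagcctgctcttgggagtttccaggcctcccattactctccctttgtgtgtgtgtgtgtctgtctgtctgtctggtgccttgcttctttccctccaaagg

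Capitals mark GAGGAAGT or its complement in 2 regions strong in bulk and weak in single cells. They were taken from the 3 largest gaps among such regions with the letters inside the 250 bp shown, and were chosen after their values were seen. Both lay in introns.
Ppm1l, chr3:69373983-69374232, + strand: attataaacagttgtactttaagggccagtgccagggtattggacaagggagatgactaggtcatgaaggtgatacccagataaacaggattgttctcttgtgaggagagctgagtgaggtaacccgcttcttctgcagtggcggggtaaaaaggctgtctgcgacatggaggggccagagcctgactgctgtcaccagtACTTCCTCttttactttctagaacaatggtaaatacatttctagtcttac
Bend4, chr5:67404508-67404757, + strand: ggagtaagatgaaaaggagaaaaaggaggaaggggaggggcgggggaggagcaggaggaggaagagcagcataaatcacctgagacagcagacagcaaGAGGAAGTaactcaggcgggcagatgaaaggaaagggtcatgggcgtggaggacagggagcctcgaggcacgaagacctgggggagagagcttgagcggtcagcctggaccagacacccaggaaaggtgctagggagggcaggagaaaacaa

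Across all 36663 regions the ranks of the assays followed each other in part. Spearman's rho between the mean bulk score and the single-cell density was 0.723, with a Pearson r of 0.762 on the log2 scale. For comparison, rho between the scores of the 2 bulk libraries was 0.882. These are descriptions across regions of the same tissue, and regions are not independent replicates. The gap ran between -92.9 and 69.7, with quartiles of -10.7, 1.39 and 12.7, and 77.2% of regions lay within 25 percentile points of 0. Gaps of at least 50 points to the bulk side were seen in 242 regions and to the single-cell side in 914. The bulk score also followed the width of a region (rho 0.784) more closely than the single-cell density did (rho 0.529). When the single-cell fragments were counted in a fixed 500-bp window on the summit, rho with the bulk score was 0.810.

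**Figure D1:**
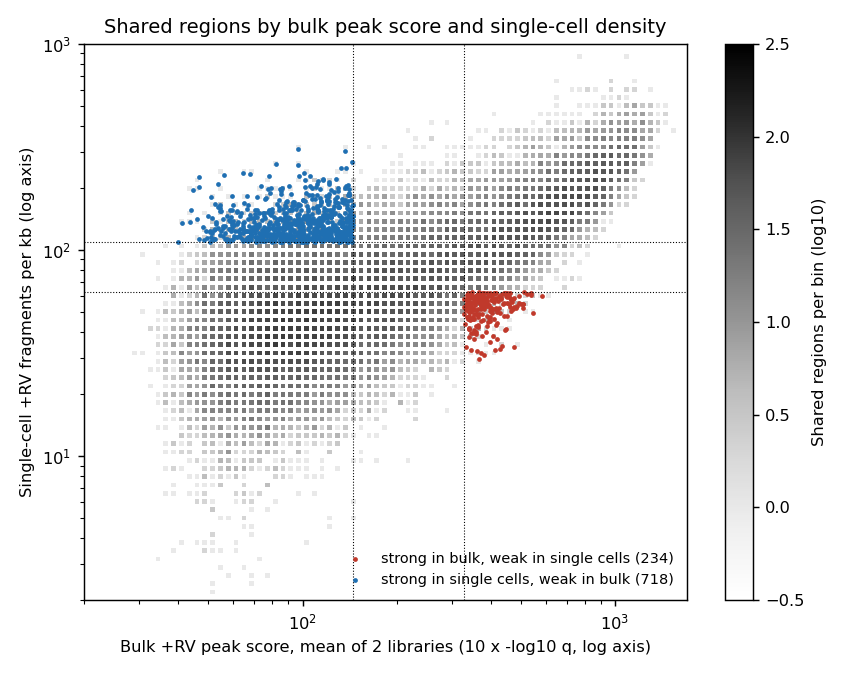
Mean deposited bulk peak score against single-cell fragments per kb (+RV), both on log axes, with shared regions counted in bins and the discordant classes drawn as points. The 234 regions strong in bulk and weak in single cells and the 718 regions strong in single cells and weak in bulk lie on opposite sides of the main cloud, whose rho is 0.723.

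The regions strong in bulk and weak in single cells were 0.638% of all shared regions, and those strong in single cells and weak in bulk were 1.96%. At the threshold, the lowest mean score inside the strong bulk class was 328.5 and the next below it was 328. The highest score counted as weak was 145, and the next above it was 145.5. For the single-cell density, 109.3 fragments per kb was the limit of strong and 62.4 fragments per kb the limit of weak. Medians of the bulk score were 374.5 and 375 in the 2 libraries for the bulk-strong regions, and the median of the mean score over all shared regions was 145.5. For the single-cell-strong regions the median scores were 97 and 99. Since the mean of both scores chose the classes, these medians do not show how well the libraries agreed, and single regions could differ between them. In single cells the bulk-strong regions held a median of 54.6 fragments per kb and the single-cell-strong regions 129.3, beside 62.4 over all shared regions. These values chose the classes and are given as a description. A median region held 44 fragments in the bulk-strong class and 52 in the single-cell-strong class, and few came from the same barcode: the most from any 1 barcode were 4 and 6.

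Distance to the nearest TSS of a protein-coding gene differed between the classes. The single-cell barcodes had been selected by their fraction of reads at TSSs, and the bulk libraries had no such selection. How far this set the distances was not tested. Of the bulk-strong regions 36.8% lay over 50 kb from a TSS and 32.9% at 10 to 50 kb, whereas over all shared regions these shares were 18.4% and 31.2%. Of the single-cell-strong regions 46.9% lay 1 to 10 kb from a TSS, against 18.4% of all shared regions, and 7.66% lay over 50 kb away. The median distance was 27319 bp for bulk-strong regions and 2946.5 bp for single-cell-strong regions, beside 9706 bp for all shared regions. Promoter windows, which reached 1000 bp before a TSS and 200 bp past it, held 18.8% of the bulk-strong regions (44 regions, exact binomial 95% interval 14.0 to 24.4). They held 21.4% of the single-cell-strong regions (154 regions, interval 18.5 to 24.6) and 31.6% of all shared regions. Both discordant classes held a smaller share of promoters than the shared regions as a whole, and 88.1% of the regions strong in both were at promoters. The direction depended on the measure in 2 settings: the share was 43.7% for bulk-strong regions ranked against the −RV single-cell set, and 35.9% for single-cell-strong regions when bulk was ranked by fold over local background. The rule itself favours a smaller share, because each discordant class must be weak in 1 assay. Regions within 1 kb of a TSS ranked high in both, with median percentiles of 81.9 in bulk and 80.2 in single cells. All intervals given here cover counting error only.

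Seen the other way, 4.99% of the 6751 regions at 1 to 10 kb were single-cell-strong, against 1.96% of all shared regions. The other distance classes held 1.42% (within 1 kb), 1.39% (10 to 50 kb) and 0.817% (over 50 kb). The bulk-strong share was 0.375% within 1 kb, 0.400% at 1 to 10 kb, 0.673% at 10 to 50 kb and 1.28% over 50 kb, so it was higher in each class farther out. Median gaps were 1.54, -5.67, 1.82 and 6.19 percentile points in the same order of distance. Within 1 kb of a TSS the ranks followed each other most closely, with a rho of 0.844, against 0.484 at 1 to 10 kb, 0.516 at 10 to 50 kb and 0.505 over 50 kb. Introns held 40.2% of the bulk-strong summits and 50.3% of the single-cell-strong summits, beside 39.6% over all shared regions.

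**Figure D2:**
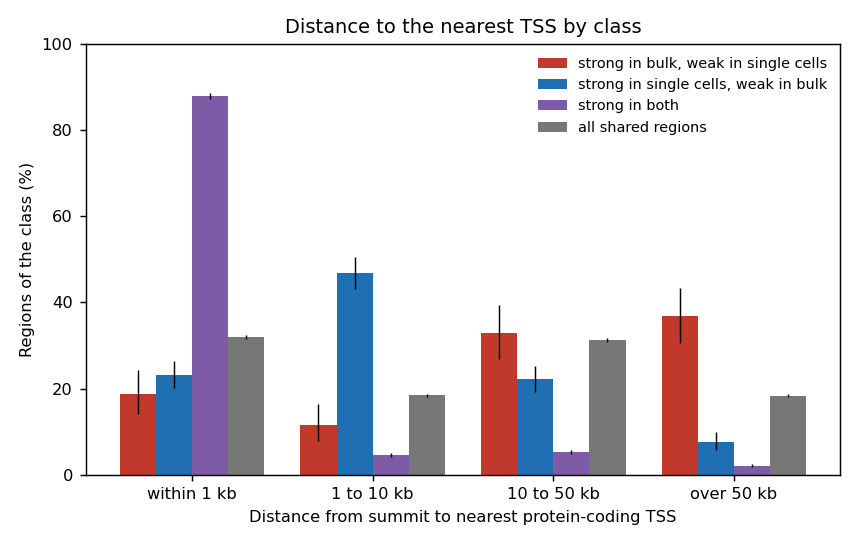
Share of regions, in percent, in each class of distance to the nearest protein-coding TSS, for the discordant classes, the regions strong in both and all shared regions, with exact binomial 95% intervals. Bulk-strong regions are most frequent over 50 kb from a TSS (36.8%) and single-cell-strong regions at 1 to 10 kb (46.9%), while 87.9% of regions strong in both lie within 1 kb.

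Width and neighbourhood moved with the classes. Bulk-strong regions were wide, with a median of 863.5 bp, and single-cell-strong regions narrow, with a median of 382.5 bp, against 584 bp for all shared regions. Regions strong in both were wider still, with a median of 1130.5 bp, so great width is not particular to the bulk-strong class. Single-cell-strong regions sat close to other peaks: the next shared region was a median of 1301.5 bp away, against 13702.5 bp for bulk-strong regions and 7706 bp for all shared regions. Another peak lay 1000 to 2500 bp from the edges of 69.4% of the single-cell-strong regions (498 regions, interval 65.8 to 72.7), of 5.56% of the bulk-strong regions and of 22.3% of all shared regions. The median single-cell density in those flanks was 34.2 fragments per kb around single-cell-strong regions and 7.0 around bulk-strong regions, with 10 over all. The bulk score is a significance over the caller's local background, while the density is per kb of region and takes no account of the flanks. How far width, neighbours or local background set the classes was not tested. With fragments counted in a 500-bp window on the summit, 74 regions were bulk-strong and 171 single-cell-strong. After subtraction of the flank density, an alternative chosen after seeing the data, these numbers were 155 and 469.

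Around the summit the classes differed in contrast as well as in level. Pooled over a class and scaled to 1000000 fragments of the +RV set on chromosomes 1 to 19, bulk-strong regions held 3.97 fragments per kb inside and 0.569 in the flanks, a ratio of 6.97. Single-cell-strong regions held 10.3 inside and 3.35 in the flanks, a ratio of 3.08. Over all shared regions these were 8.01 inside, 1.04 in the flanks and a ratio of 7.67. Flank density was thus raised around the single-cell-strong regions and low around the bulk-strong regions. Another peak lay in the flanks of 69.4% of the former and 5.56% of the latter, so the flank values are not background alone.

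**Figure D3:**
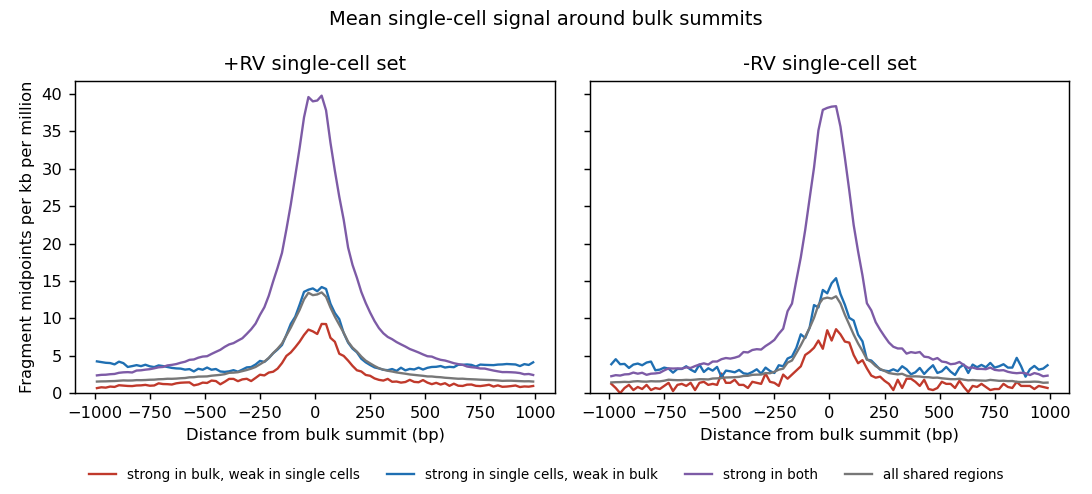
Mean single-cell fragment midpoints per kb and per 1000000 fragments of the set, by distance in bp from the summit of the strongest bulk peak, for the discordant classes, the regions strong in both and all shared regions. The profile of the single-cell-strong regions stays above that of all shared regions on both sides of the summit. Their flanks, which lie beyond the drawn range, held 3.35 against 1.04 fragments per kb on the same scale.

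The 10 largest gaps to the single-cell side were nearest to Asb17, Kcnn4, Maz, Klf13, Lpcat1, Ptma, Trak2, Cd47, Marcks and Fam53b, and all 10 regions were in the discordant class. The largest was in an intron 8246 bp downstream of the TSS of Asb17, a gene of the ankyrin-repeat SOCS box family (chr3:153852355-153852571). Its bulk peaks scored 60 and 33 in the 2 libraries, while single cells placed 49 fragments there, or 226 per kb (exact Poisson 95% interval 167 to 299), for a gap of -92.9. Second came an intronic region 6909 bp from the TSS of Kcnn4, the calcium-activated potassium channel of red cells and lymphocytes (chr7:24377080-24377346). It scored 50 and 43 in bulk and held 54 fragments from 54 barcodes, 202 per kb, for a gap of -90.9. Its AGATAAG match is in the sequence printed above. Lpcat1, an acyltransferase that remakes membrane phosphatidylcholine, had an intronic region 3829 bp from its TSS (chr13:73475420-73475731) with scores of 61 and 46 and 65 fragments, each from a different barcode. Its gap was -88.9, its flanks held 18.3 fragments per kb against 208 inside, and it too carried AGATAAG. Of the other regions among these 10, that of Klf13 had the letters in its 500-bp window. Those of Asb17, Maz, Ptma, Trak2, Cd47, Marcks and Fam53b did not.

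Several of the others differed in how far they stood above their flanks. A region 5734 bp from the TSS of Ptma, which encodes the nuclear protein prothymosin alpha, scored 51 and 51 in bulk and held 51 fragments, with only 7.67 per kb in its flanks and 181 per kb inside (gap -87.0). Cd47, the "do not eat me" signal of red cells and other blood cells, had a region 28653 bp upstream of its TSS (chr16:49771725-49771998) with scores of 78 and 51. Single cells held 65 fragments there, 237 per kb (interval 183 to 302), and the gap was -84.5. Cd47 was also 1 of 4 genes with 4 single-cell-strong regions, with Klf3, Ly6e and Zfp217, which were named after their counts were seen. Regions of Trak2, an adaptor for mitochondrial transport, and of Marcks, a membrane substrate of protein kinase C, had gaps of -85.5 and -84.4. Not all such regions stood out from their surroundings. At Maz, a zinc finger factor gene, 195 fragments per kb lay inside the region and 193 in its flanks, so its gap of -90.7 became 0.0996 once the flank density was subtracted. At the promoter of Klf13, a Krüppel-like factor gene, the density was 231 per kb inside and 170 in the flanks (gap -89.4).

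Among promoters, the 5 largest gaps to the single-cell side were at Klf13, Fam53b, Klf1, Isg15 and Icam4. Isg15 encodes a ubiquitin-like protein induced by interferon. Its region 3 bp from the TSS scored 68 and 52 in bulk and held 47 fragments, 165 per kb (gap -80.1). Icam4 encodes an adhesion protein of the red cell surface. Its region scored 49 and 67, held 70 fragments of 69 barcodes (139 per kb, gap -76.4) and carried AGATAAG within 250 bp of its summit. Beyond 10 kb the largest gaps included those at Trak2, Cd47, Anxa3 and Adamtsl4, between -85.5 and -81.1.

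Of 33 regions nearest to a gene of the erythroid list, 7 were strong in single cells and weak in bulk. That was 21.2%, against 1.96% of all shared regions. None was strong in bulk and weak in single cells, against 0.638% of all shared regions. The 7 regions belonged to 6 genes of the 12 listed genes that had a region. Klf1, the factor that switches on the adult globin program, had a region 62 bp from its TSS with scores of 63 and 46 and 35 fragments of 35 barcodes. That is 160 per kb (interval 111 to 222), for a gap of -82.3. Tal1, a partner of GATA1, had a region (chr4:115056511-115056938) with scores of 79 and 50 and 58 fragments, 136 per kb (gap -71.5). Nfe2, which encodes a factor of erythroid cells and megakaryocytes, had regions at a pair of its TSSs. The one with scores of 91 and 71 held 45 fragments (gap -57.8), and the one with scores of 73 and 137 held 50 fragments (gap -49.6).

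Other erythroid regions belonged to the membrane skeleton and its anchor. Sptb, beta spectrin, had scores of 120 and 114 with 61 fragments, 144 per kb (gap -43.3). Slc4a1, the band 3 anion exchanger of the red cell membrane, had scores of 119 and 143 with 58 fragments, 118 per kb (gap -32.0). AGATAAG was found in 4 of the 7 windows, those of Tal1, Sptb, Slc4a1 and the second Nfe2 region printed above. It was in 8 of the 33 windows of the whole list, 16.02% of all single-cell-strong windows and 6.03% of all shared regions. With 7 regions the count is a description only. The median gap of all 33 erythroid regions was -20.9, against 1.39 for all shared regions, with a median width of 499 bp against 584 bp and a median flank density of 14.3 against 10 fragments per kb. The count depended on how single-cell signal was measured. In a 500-bp window 0 of the 7 met both limits, although each kept a negative gap (between -66.6 and -24.7) and the list's median gap was -14.9 against 0.551. With ranks taken within distance classes the count was 3, with regions that had no other peak in their flanks 2, and after flank subtraction 7.

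The other lists ranged from no discordant region to a few. No list was tested, and shares are given beside that of all shared regions. Genes of T cells (62 regions), plasma cells (47), endothelium (38), stroma (25), megakaryocytes (14) and pancreatic acinar cells (6) had no region in either discordant class. Over all shared regions 0.638% were bulk-strong and 1.96% single-cell-strong, so few or none would be looked for in lists of this size. B cell genes had 86 regions, with a median gap of 3.92. Of these 2 were bulk-strong (2.33%, against 0.638% of all shared regions) and 1 was single-cell-strong (1.16%, against 1.96%). Both bulk-strong regions were assigned to Ebf1, a factor that specifies the B cell lineage. The first, in an intron 275813 bp downstream of the TSS (chr11:44892814-44893566), scored 328 and 474 and held 38 fragments, 50.5 per kb (interval 35.7 to 69.3), for a gap of 41.1. The second (chr11:45116608-45117289) scored 403 and 299 and held 35 fragments (gap 37.3). The single-cell-strong one was 4300 bp from the TSS of Cd79b, a signalling chain of the B cell receptor, with scores of 165 and 122 and 63 fragments (gap -32.1).

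Macrophage and monocyte genes had 2 single-cell-strong regions of 35 (5.71%, median gap -5.49) and dendritic cell genes 2 of 68 (2.94%, median gap 1.55), against 1.96% and 1.39 for all shared regions. The larger gap of each pair was near Slc40a1, the iron exporter of red pulp macrophages (scores 41 and 75, 45 fragments, gap -73.3), and Irf8, a factor of dendritic cells and B cells (44 and 72, 35 fragments, gap -69.3). Other regions of the dendritic cell list had gaps to the bulk side, up to 54.6. Housekeeping genes had 5 such regions of 33 (15.2%), of which 3 were near Actb, 1 at the promoter of Gapdh and 1 near Tubb5, which encodes a beta tubulin (91 and 65, 43 fragments, gap -66.5). Replication-dependent histone genes had 2 of 12 (16.7%) and the lowest median gap of any list with over 10 regions, at -27.3. Around these histone regions the median flank density was 26.8 fragments per kb, against 10 over all shared regions. One NK cell gene region, near Klrb1c, and single regions near Cd74 and Psmb8, genes of antigen presentation, had gaps between -46.2 and -30.0. They were 4.35%, 3.23% and 3.70% of the 23, 31 and 27 regions of their lists. The gap of Cd74 was 13.4 after flank subtraction, and that of Psmb8 was 1.33 in barcodes with at least 1000 fragments, so neither direction held under every setting.

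**Figure D4:**
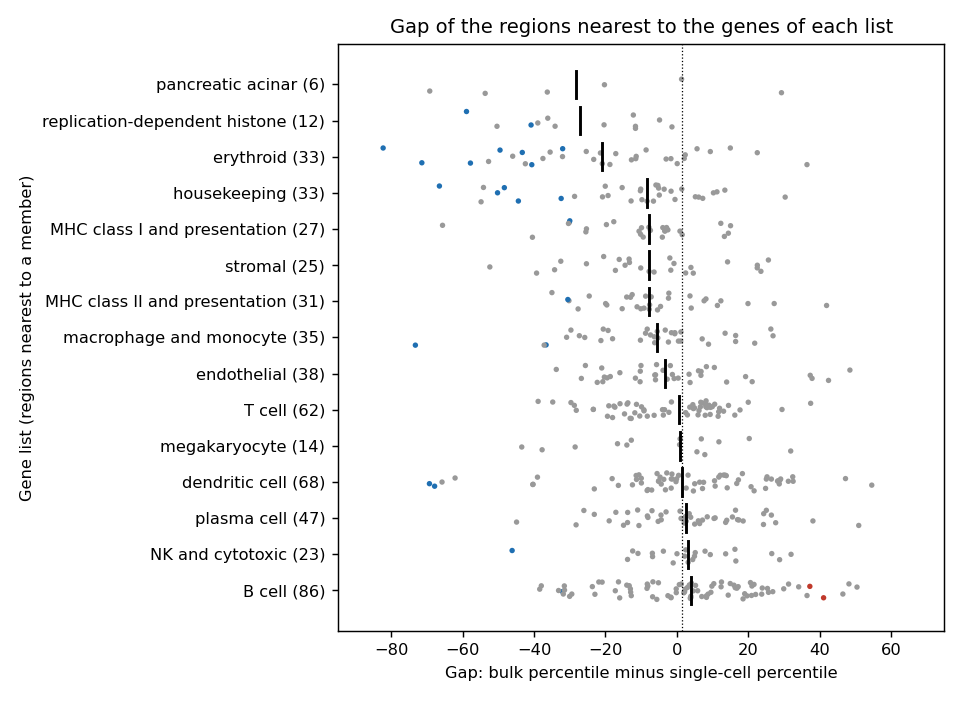
Gap between bulk and single-cell percentile (bulk minus single cells, in percentile points) for each region nearest to a gene of each of 15 lists, with the median of each list and of all shared regions. The erythroid regions have a median of -20.9 and the histone regions of -27.3, against 1.39 for all shared regions, while the 86 B cell regions centre on 3.92.

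On the bulk side, the largest gaps were at distal regions with few single-cell fragments. The largest, 164820 bp from the TSS of Mylk4, a myosin light chain kinase gene (chr13:32611177-32612176), scored 335 and 242 in the bulk libraries and held 16 fragments in 1000 bp. That is 16 per kb (interval 9.15 to 26.0), for a gap of 69.7. A region 212639 bp downstream of the TSS of the homeobox gene Otx1 scored 397 and 214 and held 13 fragments (gap 67.4). Regions upstream of Creb1, the cAMP-responsive activator, and of Stau2, an RNA-transport protein, scored 319 and 278, and 205 and 324, and both had a gap of 65.5. The region assigned to Kcnj2, a potassium channel gene, was 792037 bp from its TSS and held 10 fragments. The nearest TSS is therefore only a label of position for many of these regions. Of the 10 largest gaps to the bulk side, 8 fell short of the bulk percentile of 75 and so lay outside the discordant class.

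The other 2 were in the class. A region 125696 bp upstream of Ywhaq, a 14-3-3 protein gene (chr12:21542854-21543978), had the highest score of these 10, 574 and 373, and held 38 fragments of 35 barcodes, 33.8 per kb (gap 64.9). Its flanks held 2.33 fragments per kb. The region near 4930583I09Rik scored 337 and 399 and held 23 fragments (gap 64.3). The regions with PU.1 letters printed above had similar values. Ppm1l, a protein phosphatase gene, scored 424 and 372 with 24 fragments (36.0 per kb, gap 58.2). Bend4 scored 400 and 349 with 39 fragments (38.2 per kb, gap 54.1).

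The 5 promoters with the largest gaps to the bulk side were those of Clec4a3, Crisp1, Dgkg, Olfr658 and Cdkl4. Clec4a3, a C-type lectin receptor gene of myeloid cells, was the only one of them in the discordant class. Its region (chr6:122951999-122953095) scored 374 and 388 and held 34 fragments, each from a different barcode (31.0 per kb, interval 21.5 to 43.3, gap 63.5). Crisp1, which encodes a protein that coats sperm in the epididymis, scored 325 and 285 with 15 fragments (gap 61.5), and Olfr658, an odorant receptor gene, scored 281 and 324 with 23 fragments (gap 55.3).

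Letters bound by known factors were counted on both strands of a 500-bp window on each summit. The GATA letters AGATAAG were found in 5.13% of the bulk-strong windows, in 16.02% of the single-cell-strong windows (115 regions, interval 13.4 to 18.9) and in 6.03% of all shared regions. GAGGAAGT (PU.1) went the other way, with 17.1% of the bulk-strong windows (40 regions, interval 12.5 to 22.5), 8.77% of the single-cell-strong windows and 10.7% of all. TGTGGTT (RUNX) was in 19.7% of bulk-strong, 12.1% of single-cell-strong and 13.9% of all windows. The GC box GGGGCGG was in 14.1%, 16.7% and 22.9% in the same order, and in 58.0% of the regions strong in both. CTCF, the insulator factor, had matches in 4.27%, 3.34% and 3.22%, and TGANTCA (AP-1) in 10.3%, 15.6% and 14.1%. A match is a stretch of letters and not a bound site.

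Outside promoters the GATA share was 6.32% in bulk-strong, 17.7% in single-cell-strong and 7.52% in all shared regions, and the PU.1 share was 21.1%, 9.40% and 13.3%. The GATA share was also counted by neighbourhood. Of the 220 single-cell-strong regions with no other peak in their flanks 25.9% held AGATAAG, against 5.92% of all such shared regions, and of the 498 with another peak 11.6% did, against 6.40%. Single-cell-strong regions with the letters had a median flank density of 25 fragments per kb and lay 9180 bp from a TSS, whereas those without had 37.3 fragments per kb and lay at 2606 bp. Of the 40 bulk-strong regions with GAGGAAGT, 0 were at promoters and their median distance to a TSS was 48643 bp. Over all alternatives the GATA share of single-cell-strong regions ran between 9.57 and 24.8% and the PU.1 share of bulk-strong regions between 13.3 and 23.9%.

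**Figure D5:**
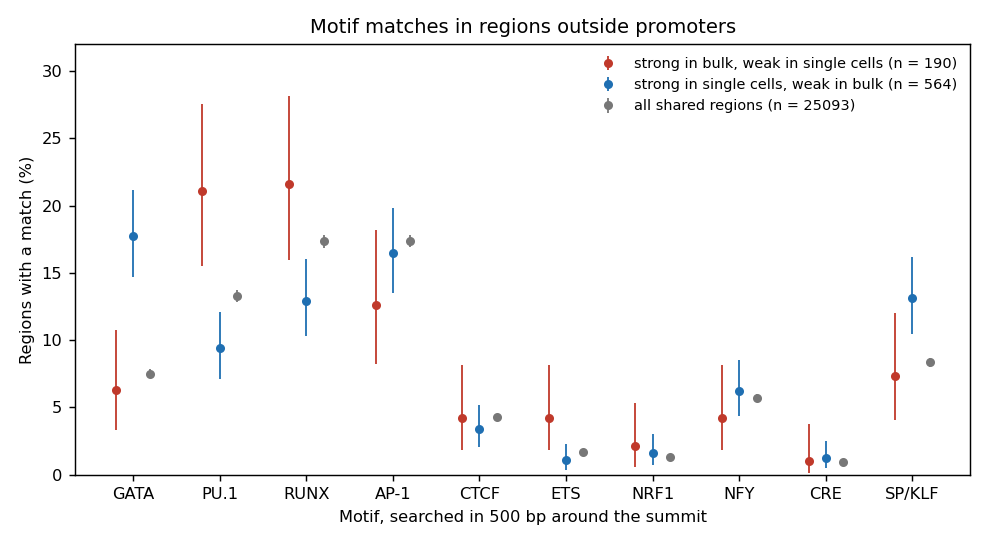
Share of regions outside promoters, in percent, with at least 1 match to the letters of each of 10 motifs in a 500-bp window on the summit. The discordant classes and all shared regions are drawn, each without its promoter regions, with exact binomial 95% intervals. GATA letters are most frequent in the single-cell-strong regions and PU.1 letters in the bulk-strong regions.

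Of the regions strong in both assays, the 5 highest in summed percentile were at the promoters of Vkorc1l1 (vitamin K epoxide reduction), Tomm40 (the mitochondrial import pore), Dnpep (an aspartyl aminopeptidase), Qdpr (recycling of tetrahydrobiopterin) and Sel1l (degradation of misfolded proteins). The Vkorc1l1 promoter scored 1237 and 1338 and held 634 fragments, 589 per kb, with 11.0 per kb in its flanks. The Sel1l promoter scored 1476 and 1464 and held 458 fragments, 467 per kb. As a class these regions had a GC content of 59.4%, against 48.3% in bulk-strong, 51.5% in single-cell-strong and 51.4% in all shared regions. Their ratio of observed to expected CpG was 0.748, against 0.281 in bulk-strong and 0.271 in single-cell-strong regions.

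The libraries and cells without reverse crosslinking were not used to choose the classes. A −RV bulk peak was present in both libraries at 100% of the bulk-strong regions (interval 98.4 to 100), at 56.0% of the single-cell-strong regions and at 62.9% of all shared regions. The share was also 100% in the 7070 regions strong in both, so it is not particular to the bulk-strong class. Both of these classes were chosen for a high +RV bulk score. In the −RV single-cell set, which is 1 sample and was not tested, the median percentile was 39.1 for the bulk-strong regions and 80.9 for the single-cell-strong regions, beside 50 over all. There 1.71% of the bulk-strong regions reached percentile 75, and 63.8% of the single-cell-strong regions did. Pooled densities per kb and 1000000 fragments in the −RV set were 3.27 in bulk-strong regions (interval 3.07 to 3.47), 9.56 in single-cell-strong regions (interval 9.29 to 9.84) and 6.81 in all. A median region held 4 −RV fragments in the bulk-strong class, 6 in the single-cell-strong class and 4 over all. Densities were per kb of the same regions, which were wide in the bulk-strong class and narrow in the single-cell-strong class. Within these limits, the order of the classes was the same in the cells without reverse crosslinking as in those with it. How far width set this order was not tested. According to the study's methods, single-cell nuclei were divided into +RV and −RV only after tagmentation and barcoding. The −RV set therefore repeats neither the animals nor the tagmentation.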

How the data were processed

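The members and the gene lists were chosen with earlier results of these data known. The authors deposited 1 list of MACS2-style peaks per bulk library, on mm10. A score in the deposited lists is 10 times −log10 q with the decimals dropped, for all but 1 peak of a −RV library. Fold, as deposited, compares the height of a summit with the background the caller estimated around it. The authors' −log10 p and −log10 q rate a peak against that background in 1 library. According to the study's methods the authors called peaks with MACS2 and removed blacklisted regions, steps described for single cells. SEACR 1.3, Bowtie2 2.4, Picard 1.119 and SAMtools 1.15 are listed in the submitters' processing notes without roles. The tools behind the bulk lists are not given in the sources used here. The single-cell files of the authors give the start, end and barcode of each fragment, after removal of duplicates and selection of barcodes, the smallest with 500 fragments in the +RV set. Still, 1.04% of the +RV fragments in the shared regions repeated the position and barcode of another fragment. The label of the deposited sets also names FRiT. The study's methods define it as the fraction of reads from 1000 bp before a TSS to 200 bp past it. Barcodes were thus also selected by signal at TSSs, in the same window used here for promoters. The study's methods describe reads cut before mapping, which affects fragment lengths.

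Peaks of the +RV libraries that overlapped by at least 1 bp were merged, and a fragment was counted by its midpoint. Distances ran from the summit of the strongest peak to the nearest of 52063 protein-coding TSSs of GENCODE vM21, whose coordinates match mm10. Flanks lay 1000 to 2500 bp from each edge. Python 3.11.15, numpy 2.4.6, pandas 2.3.3 and scipy 1.17.1 were used. Counting and ranking were tested on simulated data. Intervals are exact at 95% (binomial for shares, Poisson for counts), and no p-value was computed, since the single-cell set is 1 sample. A score of a bulk peak carries no read depth, so the depth of the bulk libraries is unknown here. Overlapping or neighbouring genes can share a region, which carries the gene of the nearest TSS.

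Regions named were the 10 with the largest gap in each direction, the 5 among promoters and the 5 beyond 10 kb in each direction, the 5 highest in both assays, and for each of 15 gene lists the discordant region with the largest gap in each direction. Alternatives covered the counting window, the bulk measure, each bulk library alone, the limits, ranks within distance classes, fragment lengths, barcodes, repeats, peak significance and the −RV single-cell set. Subtraction of flank density and removal of regions with neighbouring peaks were added after the data were seen. A few regions that meet this naming rule are not reported here. Every column of values was mapped to its sample or set.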

Additional observations from a re-analysis of the deposited data

How the results depend on the processing

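The sizes of the classes depended on the measures and on the ranking. In the order bulk-strong regions, single-cell-strong regions and rank correlation, the main values were 234, 718 and 0.723. A 500-bp window gave 74, 171 and 0.810. Fold over local background as the bulk measure gave 1343, 1828 and 0.421. Ranks within distance classes gave 1168, 1647 and 0.613, and the −RV single-cell set gave 867, 1641 and 0.573. Barcodes with at least 1000 fragments gave 514 bulk-strong regions and a rank correlation of 0.648. Of the alternatives chosen after seeing the data, flank subtraction gave 155, 469 and 0.755, and regions with no other peak in the flanks gave 67, 266 and 0.779. The rank correlation was 0.721 with 1 peak in each library, 0.731 with both fragment ends counted, 0.726 without masked regions and 0.732 with a −log10 q of at least 5. With either bulk library left out, the rank correlation ran between 0.711 and 0.712, bulk-strong regions between 262 and 266, and single-cell-strong regions between 756 and 757.

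The promoter share of bulk-strong regions was 18.8%. It was 8.11% with the 500-bp window, 10.4% with limits at the top and bottom 33.3% of regions, 6.25% with ranks within distance classes, 43.7% with the −RV set, 25% with a −log10 q of at least 5 and 11.6% after flank subtraction. The share of single-cell-strong regions was 21.4%. It was 28.7% with the 500-bp window, 35.9% with fold, 16.3% with limits at 33.3%, 12.5% within distance classes, 17.9% with barcodes of at least 1000 fragments, 13.7% with the −RV set, 17.5% after flank subtraction and 15.8% without neighbouring peaks. Over 40 named regions and 16 alternatives, 609 gaps were recomputed. Of these 402 moved by less than the spread between the bulk libraries, 204 moved by more, and 3 changed direction: Maz (0.0996) and Cd74 (13.4) after flank subtraction and Psmb8 (1.33) with barcodes of at least 1000 fragments. The 402 include settings that could hardly move a gap. New limits leave every gap as it was. The spread itself comes from the same 2 libraries that were left out in turn. The 402 are therefore no measure of stability. The cause of these shifts was not tested. No paired analysis was possible because the results come from no test and the single-cell set pools its replicates.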
